A study of Mus musculus with 12 samples.

Results

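Cytosolic nucleic acid sensing was described here through 10 genes of the deposited table of 54833 genes, each found by its gene symbol. They were the RNA sensors Ddx58, Ifih1 and Dhx58, the Z-form nucleic acid sensor Zbp1, the adaptor Mavs, the kinase Tbk1, the transcription factors Irf3 and Irf7, the DNA exonuclease Trex1 and the ubiquitin ligase Trim25. All 10 were found and 9 passed the filter on low counts, since Trex1 was listed at 0 in every sample. The levels came from RNA-seq of 12 samples of tissue around the hematoma in the ipsilateral caudate putamen of male WT C57BL/6 mice. The young mice were 8 to 10 weeks and the aged mice 20 to 22 months of age. Intracerebral hemorrhage (ICH) was induced by injecting type IV collagenase, which digests the vessel wall so that blood leaks out, while sham mice received saline, and all tissue was taken after 24 h. Sham and ICH samples of both ages gave 4 groups of 3, and each sample pooled 2 or 3 mice. *P* values therefore measure the spread between pools, not between single animals, and a collagenase bleed carries an enzyme that sham mice did not receive.

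As background, RIG-I-like receptors are helicases that bind RNA in the cytosol. The products of Ddx58 (RIG-I) and Ifih1 (MDA5) signal through Mavs, an adaptor on the outer membrane of mitochondria, whereas the product of Dhx58 (LGP2) lacks the signaling domains and modulates the other two. Cytosolic DNA is sensed by cGAS and signals through STING, and both routes meet at the kinase TBK1, which phosphorylates IRF3 and thereby starts the transcription of type I interferon (IFN) genes. Type I IFN in turn raises a set of genes that includes Ddx58, Ifih1, Dhx58, Zbp1, Trim25 and Irf7, while Irf3, Tbk1 and Mavs are expressed in most cells without such a stimulus. TREX1 degrades cytosolic DNA and so keeps the DNA route quiet, TRIM25 attaches ubiquitin chains that assist RIG-I, and ZBP1 binds nucleic acids in the Z form and can start necroptosis. In brain, microglia, astrocytes, endothelial cells and infiltrating leukocytes all carry parts of this machinery.

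The promoter windows are shown because the genes with a window differ in whether it holds the core of the IFN-stimulated response element (ISRE), a sequence found near many genes that IFN raises. RefSeq gave windows on GRCm38.p6, from 250 bases before to 50 bases after the annotated start, for 8 of the 10 genes. None was found for Zbp1 and Dhx58. The core GAAANNGAA was searched on both strands and was present in 3 of the 8 genes with a window, against 8.56% of 32851 windows. A match is a description of the letters and not a binding site. In the windows below, written 5′ to 3′ on the strand of the gene, capitals mark the ISRE core, and Irf7 is added as a gene without a match.
Ddx58 (chr4:40239776-40240075, minus strand): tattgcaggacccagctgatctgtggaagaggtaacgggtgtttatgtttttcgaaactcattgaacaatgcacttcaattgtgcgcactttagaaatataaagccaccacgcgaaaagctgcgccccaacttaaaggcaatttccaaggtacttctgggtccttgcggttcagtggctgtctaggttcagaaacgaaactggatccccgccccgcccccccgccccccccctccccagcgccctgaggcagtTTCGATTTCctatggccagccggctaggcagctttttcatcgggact
Ifih1 (chr2:62646206-62646505, minus strand): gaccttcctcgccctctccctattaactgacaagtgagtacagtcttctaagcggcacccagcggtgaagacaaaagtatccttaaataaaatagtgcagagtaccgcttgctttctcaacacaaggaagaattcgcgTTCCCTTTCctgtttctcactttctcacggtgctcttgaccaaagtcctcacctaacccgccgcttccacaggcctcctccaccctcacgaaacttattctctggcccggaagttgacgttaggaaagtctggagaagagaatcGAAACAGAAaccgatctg
Trim25 (chr11:88999153-88999452, plus strand): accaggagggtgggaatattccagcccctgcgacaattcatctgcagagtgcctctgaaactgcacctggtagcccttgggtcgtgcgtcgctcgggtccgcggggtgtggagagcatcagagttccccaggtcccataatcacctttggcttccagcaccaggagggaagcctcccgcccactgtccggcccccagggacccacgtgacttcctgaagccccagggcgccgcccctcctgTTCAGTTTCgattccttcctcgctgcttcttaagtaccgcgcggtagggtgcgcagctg
Irf7 (chr7:141266375-141266674, minus strand): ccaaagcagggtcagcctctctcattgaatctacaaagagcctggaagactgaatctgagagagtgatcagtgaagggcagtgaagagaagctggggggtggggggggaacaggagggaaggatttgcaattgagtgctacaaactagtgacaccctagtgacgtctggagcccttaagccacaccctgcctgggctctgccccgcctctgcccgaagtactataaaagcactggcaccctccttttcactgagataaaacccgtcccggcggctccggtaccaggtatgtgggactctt

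Ifih1 held 2 matches, and Ddx58 and Trim25 held 1 each. In Trim25 the match, TTCAGTTTC, ended at the last base before the start, and in Ddx58 the match, TTCGATTTC, lay 3 to 11 bases past the start. With only the bases before the start, Ifih1 and Trim25 kept a match, which is 2 of 8 genes against 7.13% of windows. Mavs, Tbk1, Irf3, Irf7 and Trex1 held no match in their windows, of which Trex1 had 2. A gene counts if any of its windows holds a match, while the shares are over single windows. A second motif searched, TTCNNNGAA (labeled GAS), was present in 0 of the 8 genes, against 8.3% of windows.

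The total count per sample ranged from 28410896 to 37785160. All 10 markers of striatal neurons were counted in every group of this striatal tissue, and their summed level in CPM (counts scaled to a common library total, with TMM factors) ran from 1790 to 3049 in young sham, 516 to 1738 in young ICH, 1524 to 2662 in aged sham and 327 to 1926 in aged ICH. The summed level of 12 monocyte and macrophage markers did not overlap between sham and ICH: it was 152 to 166 CPM in young sham and 312 to 401 CPM in young ICH, and 130 to 249 CPM in aged sham and 337 to 421 CPM in aged ICH. The summed level of 12 neutrophil markers was 11.97 to 14.4 CPM in young sham, 24.7 to 45.7 CPM in young ICH, 16.8 to 29.0 CPM in aged sham and 43.9 to 60.3 CPM in aged ICH. In contrast, 10 homeostatic microglia markers summed to 355 to 423 CPM, 363 to 441 CPM, 372 to 410 CPM and 369 to 436 CPM in the same order of groups. Markers of the choroid plexus, which lies in the adjacent ventricle, summed to between 13.3 and 4119 CPM and were highest in young ICH 3, at 4119 CPM. Of the lists given so far, only S100a4 in young sham was at 0 in a whole group, among the monocyte and macrophage markers. The sums of monocyte and macrophage and of neutrophil markers thus moved with every comparison of ICH with sham below. The sums of T cell markers overlapped between sham and ICH at both ages, those of B cell markers in young mice only, and those of NK cell markers at neither age. The NK and B cell sums lay near the floor, since only 1 of 6 markers of each list passed the filter on low counts. In aged sham, Ncr1, Gzma and Klra8 of the NK cell list and Blk of the B cell list were at 0. The part of any of these marker lists in the results below was not tested. In bulk tissue, more cells of a type and more RNA per cell cannot be told apart.

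Part of this machinery was higher after ICH in mice of both ages. In young ICH vs. young sham, Irf3, Trim25 and Mavs rose, by 1.43-fold to 1.65-fold. In aged ICH vs. aged sham, Ddx58, Dhx58, Zbp1, Irf3 and Trim25 rose, by 1.37-fold to 2.80-fold. Tbk1 differed by a log2 fold change (log2FC) of −0.01 in young and 0.04 in aged mice. None of the 9 genes tested fell in either comparison.

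The counts of calls were as follows. In young ICH vs. young sham, 3 of the 9 genes tested were higher at an adjusted *P* under 0.05 (edgeR's quasi-likelihood test, Benjamini-Hochberg adjustment over 21495 genes), against 9.89% of all genes tested. By the criterion for DEGs, a fold change above 1.5 or under 0.67 and an unadjusted *P* under 0.05, 3 were upregulated, against 8.66% of all genes. Every young ICH sample lay above every young sham sample in 4 of the 9 genes, against 18.5% of all genes. In aged ICH vs. aged sham, 5 of 9 were higher at an adjusted *P* under 0.05, against 7% of all genes, 6 were upregulated DEGs, against 7.24%, and 7 had no overlap between the groups, against 17.8%. The median log2FC of the 9 genes was 0.51 in young and 0.87 in aged mice, and that of all genes tested was 0.02 and 0.0018. The call in aged mice rested on single libraries: without aged ICH 1 it was 0 of 9, and without aged sham 2 it was 1 of 9 (Irf3), while 409 and 714 genes of all those tested remained higher, in place of 1505. Without aged sham 3, aged ICH 3, young sham 1 or young ICH 1 it was 3 of 9 (Ddx58, Irf3 and Trim25). The count of upregulated DEGs without 1 library was 5 or 6 of 9 in every such fit. In young mice, the call went from 3 to 1 (Irf3) without young sham 2, young sham 3 or young ICH 3, and the count of DEGs from 3 to 1 without young sham 2 and to 0 without young ICH 3.

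**Figure D1:**
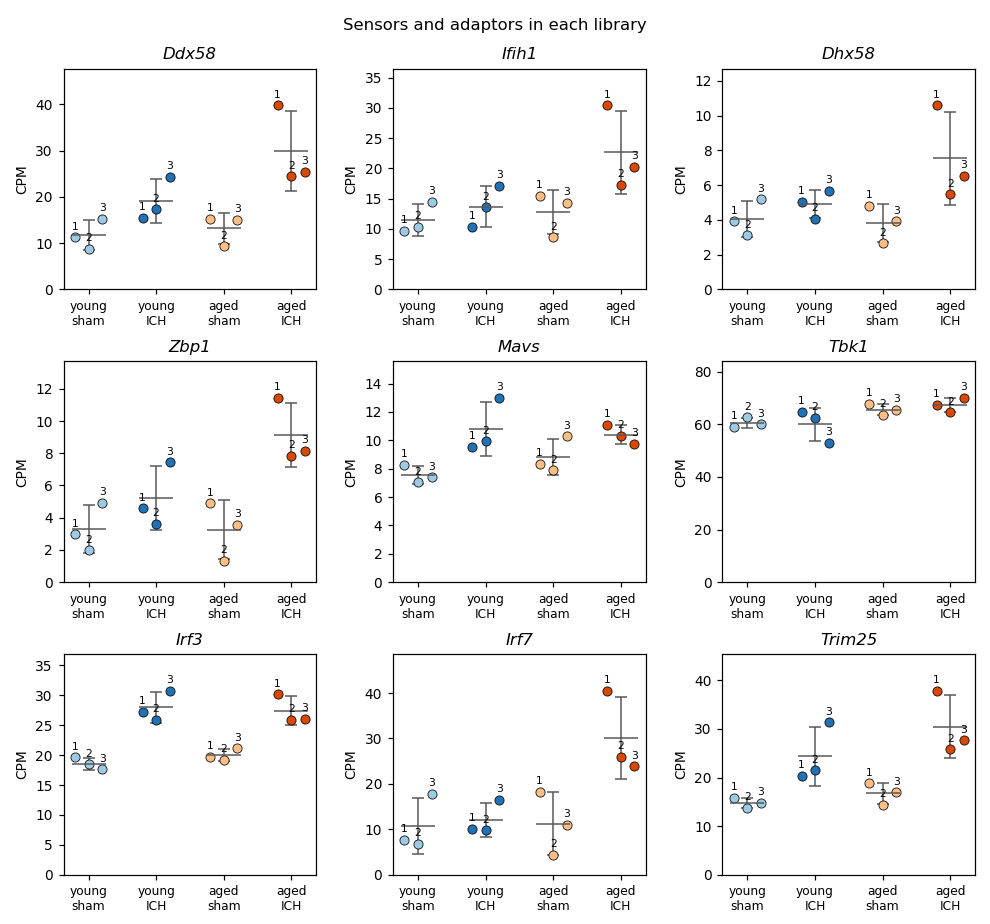
Levels of the 9 genes with counts, in CPM on a linear axis from 0, for each library (points, numbered by replicate) with the mean and SD of each group of 3 (bars). Irf3 separates sham from ICH at both ages, Tbk1 stays between 52.9 and 70.0 CPM, and in Irf7 the 3 aged ICH libraries, from 23.9 to 40.5 CPM, lie above all others.

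Ddx58, which encodes RIG-I (chromosome 4, 40203773 to 40239828, minus strand), was at 11.2, 8.76 and 15.2 CPM in young sham 1 to 3 and at 15.5, 17.3 and 24.4 CPM in young ICH 1 to 3. It was at 15.2, 9.31 and 15.03 CPM in aged sham and at 39.8, 24.4 and 25.4 CPM in aged ICH. Sham and ICH libraries did not overlap at either age, and every aged ICH library lay above every young ICH library, though the lowest of the former, at 24.41 CPM, hardly exceeded the highest of the latter, at 24.39 CPM. The log2FC of aged ICH vs. aged sham was 1.18 (SE 0.27, adjusted *P* = 0.0171), which is 2.26-fold. That of young ICH vs. young sham was 0.70 (SE 0.27), which met the criterion for DEGs and missed the adjusted threshold (adjusted *P* = 0.0912).

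Ifih1, which encodes MDA5 (chromosome 2, 62595798 to 62646255, minus strand), was at 9.64, 10.3 and 14.5 CPM in young sham and at 10.3, 13.5 and 17.1 CPM in young ICH. In aged mice it was at 15.4, 8.60 and 14.3 CPM after sham surgery and at 30.4, 17.3 and 20.3 CPM after ICH. The young groups overlapped and the aged groups did not. Its log2FC was 0.25 (SE 0.27, adjusted *P* = 0.568) in young mice and 0.83 (SE 0.27, adjusted *P* = 0.0665) in aged mice. The latter met the criterion for DEGs and missed the adjusted threshold with edgeR, while DESeq2 called it.

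Dhx58, which encodes LGP2 (chromosome 11, 100694884 to 100704271, minus strand), was the least abundant of the RNA sensors per length, at a mean of 1.19 FPKM in young sham. Its values were 3.92, 3.11 and 5.18 CPM in young sham, 5.05, 4.06 and 5.67 CPM in young ICH, 4.83, 2.66 and 3.92 CPM in aged sham and 10.6, 5.48 and 6.54 CPM in aged ICH. Every aged ICH library was above every aged sham library, and the young groups overlapped. It rose in aged ICH vs. aged sham, with a log2FC of 0.99 (SE 0.29, adjusted *P* = 0.0425), a call lost without any 1 of 7 libraries, 2 of them young. In young mice the log2FC was 0.28 (SE 0.29, adjusted *P* = 0.541). An antisense transcript, Dhx58os, shares 141 exonic bases with Dhx58 on the other strand, and had 3 to 13 counts per library.

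Zbp1 (chromosome 2, 173206612 to 173218923, minus strand) had 39 counts in aged sham 2 to 410 in aged ICH 1. Its levels were 2.96, 1.97 and 4.92 CPM in young sham, 4.59, 3.63 and 7.44 CPM in young ICH, 4.90, 1.31 and 3.56 CPM in aged sham and 11.4, 7.82 and 8.17 CPM in aged ICH. The 3 aged ICH libraries were above all other libraries, while young sham 3 lay above 2 of the young ICH libraries. The log2FC of aged ICH vs. aged sham was 1.49 (SE 0.44, adjusted *P* = 0.0454), or 2.80-fold, the largest of the 9, and the 95% interval ran from 0.53 to 2.45. This call was lost without any 1 of 7 libraries, 2 of them young. In young mice it was 0.67 (SE 0.44, adjusted *P* = 0.312), with an interval from −0.29 to 1.63.

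Mavs, the adaptor of both RNA receptors (chromosome 2, 131234063 to 131248025, plus strand), was at 8.29, 7.04 and 7.39 CPM in young sham and at 9.52, 9.92 and 12.98 CPM in young ICH, with no overlap. In aged sham it was at 8.34, 7.89 and 10.3 CPM, and in aged ICH at 11.1, 10.3 and 9.74 CPM, with overlap. It rose in young ICH vs. young sham, with a log2FC of 0.51 (SE 0.14, adjusted *P* = 0.0289), which is 1.43-fold and under the fold that the criterion for DEGs asks. This call was lost without any 1 of 3 libraries, and also when only the 6 young samples were fitted. In aged ICH vs. aged sham the log2FC was 0.23 (SE 0.14, adjusted *P* = 0.309).

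Tbk1, the kinase on which the RNA and DNA routes meet (chromosome 10, 121546455 to 121586787, minus strand), was the most abundant of these genes per length in every group, with group means of 14.9 to 17.8 FPKM. Its group means were 60.6 ± 1.88 CPM in young sham, 60.1 ± 6.30 CPM in young ICH, 65.7 ± 2.03 CPM in aged sham and 67.3 ± 2.74 CPM in aged ICH (SD, n = 3 each). The 95% interval of the log2FC was −0.17 to 0.15 in young mice and −0.12 to 0.20 in aged mice, so that a change by 1.5-fold in either direction lay outside both. Every aged sham library was above every young sham library, at a log2FC of 0.11 (adjusted *P* = 0.555).

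Irf3 (chromosome 7, 44997648 to 45002848, plus strand) gave the smallest *P* of the 9 genes in both comparisons of ICH with sham. It was at 19.6, 18.5 and 17.6 CPM in young sham and at 27.2, 25.9 and 30.8 CPM in young ICH. It was at 19.8, 19.3 and 21.1 CPM in aged sham and at 30.2, 25.9 and 26.1 CPM in aged ICH. Each ICH library, young or aged, lay above each sham library of either age. The log2FC was 0.59 (SE 0.09, adjusted *P* = 0.0021) in young mice and 0.45 (SE 0.09, adjusted *P* = 0.00996) in aged mice. The aged and the young ICH groups differed by −0.03 (95% interval −0.22 to 0.16). Bcl2l12, on the other strand, shares 88 exonic bases with Irf3 and had 28 to 92 counts per library, fewer than the 534 to 1083 of Irf3.

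Irf7 (chromosome 7, 141262706 to 141266481, minus strand), the factor that amplifies type I IFN production, varied more between libraries of the same group than the other 8 genes did in young sham and in aged sham, though not in the ICH groups. It was at 7.71, 6.76 and 17.9 CPM in young sham, 10.1, 9.79 and 16.5 CPM in young ICH, 18.3, 4.38 and 11.1 CPM in aged sham and 40.5, 26.0 and 23.9 CPM in aged ICH. The SD was 57.1% of the mean in young sham and 61.9% in aged sham, against 5.48% and 4.79% for Irf3. The young groups overlapped fully, and all 3 aged ICH libraries were above every other library. In aged ICH vs. aged sham the log2FC was 1.42 (SE 0.47), or 2.68-fold, which met the criterion for DEGs and missed the adjusted threshold (adjusted *P* = 0.0698). In young ICH vs. young sham it was 0.17 (SE 0.47, adjusted *P* = 0.835), and its 95% interval, −0.87 to 1.21, also holds a change of 2-fold. Phrf1, on the other strand, shares 45 exonic bases with Irf7 and had 1638 to 2191 counts per library, more than the 130 to 1454 of Irf7, and the strand setting of the counting was not given.

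Trim25 (chromosome 11, 88999376 to 89020293, plus strand) rose at both ages. It was at 15.8, 13.7 and 14.8 CPM in young sham, 20.3, 21.5 and 31.4 CPM in young ICH, 18.8, 14.4 and 16.9 CPM in aged sham and 37.9, 25.8 and 27.6 CPM in aged ICH. No sham library reached the lowest ICH library of either age. The log2FC was 0.72 (SE 0.18, adjusted *P* = 0.0191) in young mice and 0.87 (SE 0.18, adjusted *P* = 0.0129) in aged mice.

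Trex1 (chromosome 9, 109057933 to 109059734, minus strand) was listed at 0 counts and 0 FPKM in all 12 samples. All of its 1147 exonic bases also belong to exons of Atrip on the same strand, and Atrip had 736 to 1008 counts per library. In the whole table, 97 of 133 protein-coding genes whose exonic bases all lie in exons of other genes on the same strand were at 0 in every sample, as were 34 of 35 genes covered in full by genes on the opposite strand only. Of 15386 protein-coding genes that share no exonic base, 2190 were at 0 (14.2%). The listed value of Trex1 therefore cannot be read as absence of its RNA, and no comparison is given for it.

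**Figure D2:**
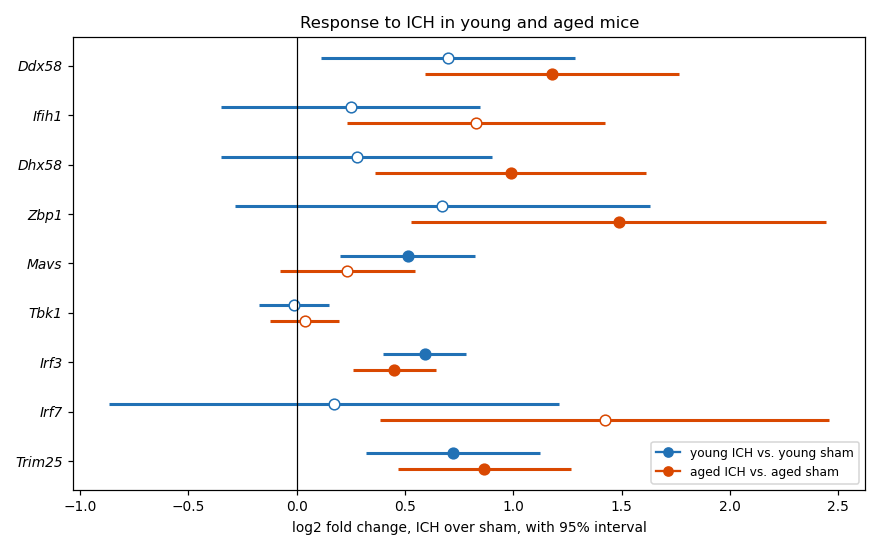
log2 fold changes of ICH over sham for the 9 genes tested, in young mice (blue) and aged mice (orange), with 95% intervals (lines); filled points had an adjusted P under 0.05. The intervals of the young and aged response overlap in all 9 genes, and those of Irf7 and Zbp1 are the widest.

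Per length, the order of the group means was the same in young sham and aged sham and differed in both ICH groups. In young sham the group means were 14.9 FPKM for Tbk1, 5.17 for Irf3, 2.74 for Irf7, 2.46 for Trim25, 2.17 for Mavs, 1.60 for Ddx58, 1.35 for Ifih1, 1.19 for Dhx58 and 0.891 for Zbp1. Aged sham had 16.6 FPKM for Tbk1, 5.74 for Irf3, 2.93 for Irf7, 2.86 for Trim25 and 2.61 for Mavs, and 0.910 for Zbp1 at the low end. In young ICH Irf7, at 3.28 FPKM, came after Trim25 at 4.33 FPKM and Mavs at 3.30 FPKM, gaps within the spread of Irf7 (SD 1.07 FPKM). In aged ICH Irf7 had a mean of 8.26 ± 2.49 FPKM and Irf3 one of 8.24 ± 0.725 FPKM (SD, n = 3), a gap within their spread. Trim25 followed at 5.48 FPKM and Ddx58 at 4.39 FPKM, above Mavs at 3.22 FPKM, and the lowest level was that of Dhx58 at 2.39 FPKM.

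Age alone was not associated with a called difference in these genes. In aged sham vs. young sham, 0 of 9 were called by edgeR's adjusted *P*, against 0.0884% of all genes higher. None were DEGs, against 2.82% of all genes upregulated (606 genes, with 193 more downregulated), and 0 had an unadjusted *P* under 0.05. DESeq2 also called 0. The log2FC ran from −0.10 in Dhx58 to 0.22 in Mavs, and 1 gene, Tbk1, had no overlap between the groups, against 9.81% of all genes. The 95% interval was narrow for Tbk1, at −0.05 to 0.27. It was wide for Irf7, at −0.97 to 1.11, and for Zbp1, at −0.98 to 0.97. These values therefore do not show the 2 sham groups to be alike.

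After ICH, 3 genes of this set were higher in aged than in young mice by the criterion for DEGs, Ddx58, Ifih1 and Irf7, against 2.21% of all genes. None of the set reached an adjusted *P* under 0.05 with edgeR or DESeq2, against 0.0372% of all genes higher with edgeR. The log2FC was 0.65 (SE 0.26, adjusted *P* = 0.472) for Ddx58, 0.73 (SE 0.27, adjusted *P* = 0.435) for Ifih1 and 1.32 (SE 0.47, adjusted *P* = 0.42) for Irf7. With Zbp1, at a log2FC of 0.81 (SE 0.43, adjusted *P* = 0.588), 4 genes had every aged ICH library above every young ICH library, against 6.9% of all genes. Tbk1 had a log2FC of 0.16 and was the fourth gene with an unadjusted *P* under 0.05, and Mavs and Irf3 were at −0.06 and −0.03. The count of DEGs rested on few libraries, since it was 0 without aged ICH 1 or young ICH 1, 1 without young ICH 2 and 5 without young ICH 3 or aged sham 2. Marker levels of other cells also differed between the young and the aged ICH group. Oligodendrocyte markers summed to 5851 to 7689 CPM in young ICH and 4418 to 5126 CPM in aged ICH, with 5 of 10 lower by the criterion for DEGs, and NK cell markers to 0.799 to 3.98 CPM and 0.307 to 0.566 CPM, both without overlap. The NK cell sums lay near the floor, since only 1 of the 6 markers passed the filter on low counts. Of the tested markers, 4 of 10 of neutrophils and 1 of 11 of monocytes and macrophages were higher and 2 of 8 of T cells lower by that criterion, while the sums of these lists overlapped. No marker of these lists reached an adjusted *P* under 0.05 with edgeR, and their part in the result was not tested.

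Whether the response to ICH differed between the ages was tested as the interaction, in which the young log2FC is subtracted from the aged log2FC. None of the 9 genes was called or had an unadjusted *P* under 0.05, and none of all genes tested was called (0% at an adjusted *P* under 0.05, with 606 genes at an unadjusted *P* under 0.05). No gene of the set met the criterion for DEGs in the interaction, against 0.484% of all genes upregulated by it. The estimate was largest for Irf7, at 1.25 (SE 0.67, adjusted *P* = 0.99991), with a 95% interval from −0.21 to 2.71, and was 0.81 for Zbp1, 0.71 for Dhx58, 0.58 for Ifih1 and 0.48 for Ddx58. It was 0.14 for Trim25, 0.05 for Tbk1, −0.14 for Irf3 and −0.28 for Mavs. That Ddx58, Dhx58 and Zbp1 passed the threshold in aged mice and not in young mice is therefore not a shown difference between the ages. The comparison of the 2 ICH groups shares its samples with both responses, so its values are not separate support for them.

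**Figure D3:**
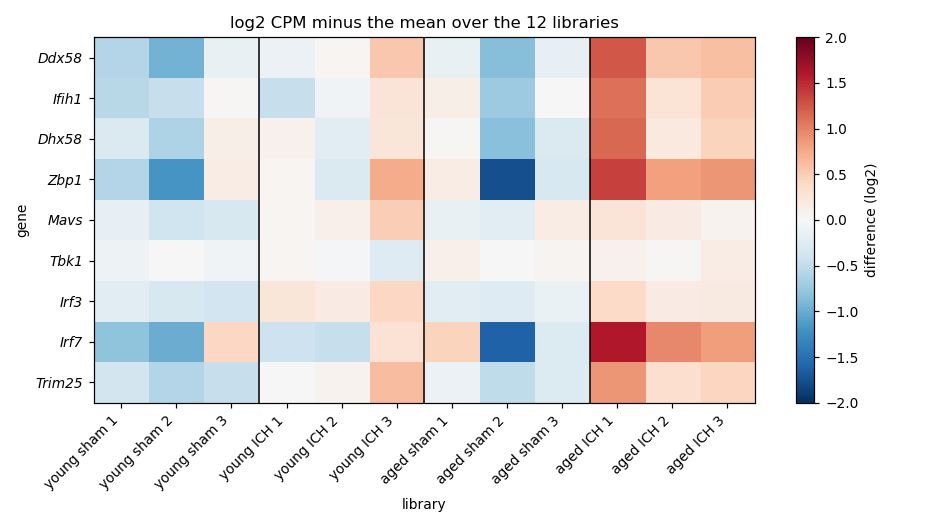
log2 CPM of each gene in each library minus the mean of that gene over the 12 libraries, as a color scale from −2 to 2. Aged sham 2 is the lowest library of its group in 9 of 9 genes and aged ICH 1 the highest of its group in 8 of 9, and the extremes are −1.76 for Zbp1 and 1.60 for Irf7.

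The spread within groups was shared between many of the genes, but not all. With group means removed, Tbk1 correlated negatively with every other gene tested, from −0.69 with Mavs to −0.06 with Dhx58. Irf3 and Irf7 correlated at 0.30. Mavs and Irf3 were highest in young sham 1 and in aged sham 3 of their groups. Aged sham 2 was the lowest aged sham library in all 9 genes, and aged ICH 1 was the highest aged ICH library in 8 of 9, all but Tbk1. Young ICH 3 was the highest young ICH library in the same 8 genes. Among young sham libraries, young sham 3 was highest in Ddx58, Ifih1, Dhx58, Zbp1 and Irf7, and young sham 2 was lowest in 6 genes. Aged ICH 1 also had the highest sums of monocyte and macrophage markers (421 CPM) and of neutrophil markers (60.3 CPM) of its group and the lowest sum of striatal neuron markers (327 CPM). Aged sham 2 had the lowest sum of monocyte and macrophage markers of its group (130 CPM), and young ICH 3 the highest of its group (401 CPM). Homeostatic microglia markers were highest of their group in aged sham 1 (410 CPM), aged ICH 1 (436 CPM) and young ICH 3 (441 CPM). They were lowest of their group in aged sham 2 (372 CPM), but also in young sham 3 (355 CPM). Some other marker levels did not follow the order of the genes. Aged sham 1, highest in 7 of 9 genes, had 176 CPM of monocyte and macrophage markers against 249 CPM in aged sham 3, and young sham 3 had a middle value of its group (159.7 CPM). Young ICH 3 had the highest sum of striatal neuron markers of its group (1738 CPM) and 39.2 CPM of neutrophil markers against 45.7 CPM in young ICH 2. Choroid plexus markers summed to 4119 CPM in young ICH 3, 1571 CPM in aged ICH 1 and 1993 CPM in aged ICH 2, and to at most 497 CPM in the other libraries. The part of these marker levels in the spread was not tested.

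**Figure D4:**
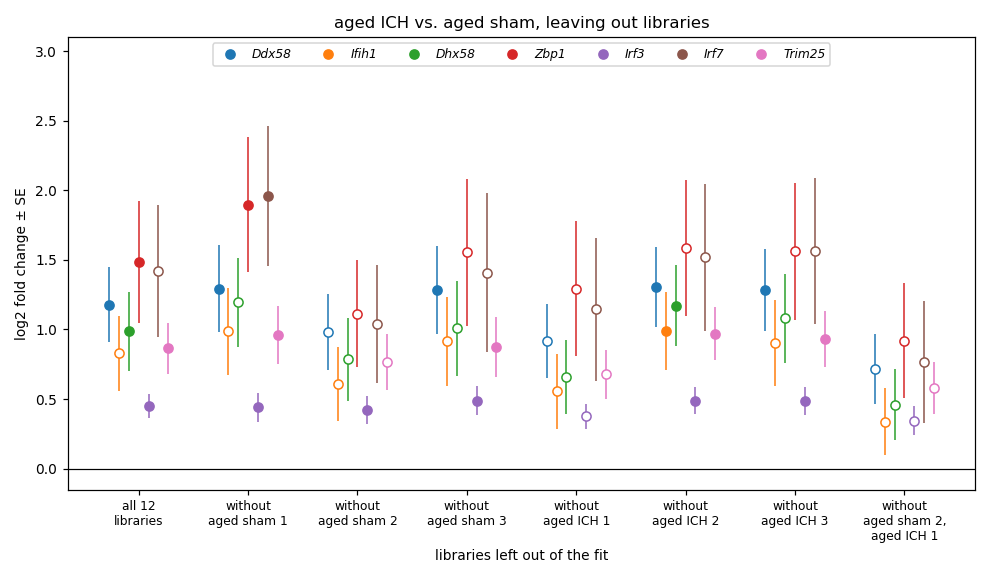
log2 fold changes (± SE) in aged ICH vs. aged sham for the 7 genes without overlap between these groups, fitted with all libraries, without each aged library in turn, and without both aged sham 2 and aged ICH 1; filled points had an adjusted P under 0.05. All values stay above 0, and no point is filled without aged ICH 1.

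With both aged sham 2 and aged ICH 1 left out, a setting chosen after their values were seen, all 9 log2FC of aged ICH vs. aged sham kept their sign and none was called. Ddx58 was then at 0.72 (SE 0.25, adjusted *P* = 0.186), Zbp1 at 0.92 (SE 0.41, adjusted *P* = 0.293), Irf7 at 0.76 (SE 0.44, adjusted *P* = 0.415), Trim25 at 0.58 (SE 0.19, adjusted *P* = 0.157) and Irf3 at 0.35 (SE 0.10, adjusted *P* = 0.133). Of all genes tested, 53 were then called higher, with 2 samples in each aged group.

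The wider machinery was followed in a list of 91 other genes of nucleic acid sensing and its signaling, of which 90 were tested. The list was not limited to the cytosol, since it also holds Toll-like receptors such as Tlr7 and their adaptor Myd88. In young ICH vs. young sham 24 were higher and 3 lower at an adjusted *P* under 0.05, against 9.89% and 9.23% of all genes, and in aged ICH vs. aged sham 30 were higher and 2 lower, against 7% and 6.15%. Their median log2FC was 0.33 and 0.36. The count of 24 fell to 11 without young sham 2 and to 15 without young ICH 3, and the count of 30 fell to 8 without aged ICH 1, to 16 without aged sham 2 or aged ICH 3 and to 1 without both aged sham 2 and aged ICH 1. Between aged sham and young sham, between aged ICH and young ICH and in the interaction, 0 were called with edgeR, while DESeq2 called 5 higher between the ICH groups. The criterion for DEGs gave 2 of 90 upregulated between the sham groups, against 2.82% of all genes, and 17 of 90 between the ICH groups, against 2.21%. The count of 17 was 8 without aged ICH 1, 11 without young ICH 1 and 20 without aged sham 2. It was 12 without both aged sham 2 and aged ICH 1. The genes with the smallest *P* of each role are named below. Counts by role are small, and several lie near the share of all genes, so they are not read as results about a role.

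Among 15 DNA sensors and adaptors, 2 rose in young ICH vs. young sham, Aim2, a sensor that assembles an inflammasome, at a log2FC of 0.62 (adjusted *P* = 0.00696), and Mb21d1, which encodes cGAS, at 0.75 (adjusted *P* = 0.0144). In aged ICH vs. aged sham Mb21d1 rose by 0.61 (adjusted *P* = 0.0441) and Tmem173, which encodes STING, by 0.78 (adjusted *P* = 0.0214). Tmem173 was at 0.50 in young mice (adjusted *P* = 0.0849) and Aim2 at 0.22 in aged mice (adjusted *P* = 0.262). Thus 2 of 15 rose at each age, against 9.89% of all genes in young and 7% in aged mice. The median log2FC of the 15 was 0.12 in young and 0.07 in aged mice. This median describes the list, which also holds genes such as Polr3a, Xrcc5 and Rad50, and not cGAS and STING. For Mb21d1 and Tmem173, every ICH library lay above every sham library at each age, against 18.5% of all genes in young and 17.8% in aged mice.

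Among 19 RNA sensors and helicases, 4 rose in young mice, and 6 rose and 1 fell in aged mice, with medians of 0.42 and 0.95. Of all genes, 9.89% rose in young mice, and 7% rose and 6.15% fell in aged mice. Tlr7, an endosomal receptor for single-stranded RNA, went from a mean of 7.32 to 17.0 CPM in young mice and from 8.09 to 15.5 CPM in aged mice, at a log2FC of 1.21 (adjusted *P* = 0.00147) and 0.93 (adjusted *P* = 0.00617). Tlr8, of the same family, rose by 2.37 (adjusted *P* = 0.00808) and 2.03 (adjusted *P* = 0.0247) from means of 0.176 and 0.166 CPM. The helicase Dhx36 fell by 0.25 in aged mice (adjusted *P* = 0.0218) and was at −0.18 in young mice (adjusted *P* = 0.0612).

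In the group of 15 kinase complex members and adaptors, 4 rose and 1 fell in young mice and 2 rose in aged mice. Of all genes, 9.89% rose and 9.23% fell in young mice and 7% rose in aged mice. Myd88, the adaptor of most Toll-like receptors, rose by 1.12 (adjusted *P* = 0.0122) and 1.23 (adjusted *P* = 0.0123), and Ripk1, a kinase of cell death signaling, by 0.68 (adjusted *P* = 0.0166) and 0.84 (adjusted *P* = 0.0102). Tbkbp1, an adaptor that binds TBK1, rose in young mice at a log2FC of 0.47 (adjusted *P* = 0.0141) and was at 0.29 in aged mice (adjusted *P* = 0.111). The kinase itself stayed level, as shown above.

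Of 10 further transcription factors, 5 rose and 1 fell in young mice and 9 rose and 1 fell in aged mice. Of all genes, 9.89% rose and 9.23% fell in young mice, and 7% rose and 6.15% fell in aged mice. Irf5 rose by 0.89 (adjusted *P* = 0.00167) and 0.65 (adjusted *P* = 0.00845), and Jun, a subunit of AP-1, by 0.83 (adjusted *P* = 0.0039) and 0.85 (adjusted *P* = 0.00661). Atf2, which pairs with Jun, fell by 0.41 (adjusted *P* = 0.00267) and 0.33 (adjusted *P* = 0.0104). Among 9 nucleases and editors that limit the ligands, 3 rose at each age and 1 fell in young mice, against the same shares of all genes. Dnase2a, which digests DNA in lysosomes, was at 0.65 (adjusted *P* = 0.00541) and 0.52 (adjusted *P* = 0.0201), Samhd1, which depletes nucleotides, at 0.46 (adjusted *P* = 0.0161) and 0.51 (adjusted *P* = 0.0153), and Pnpt1, which degrades mitochondrial RNA, at 0.40 (adjusted *P* = 0.0308) and 0.45 (adjusted *P* = 0.0237).

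Among 18 ubiquitin and ISG15 regulators, 2 rose in young mice and 6 in aged mice, against 9.89% and 7% of all genes. Rnf125, a ubiquitin ligase that marks RIG-I for degradation, rose by 1.43 (adjusted *P* = 0.00381) and 1.73 (adjusted *P* = 0.00392), from a mean of 1.81 to 4.88 CPM in young mice and from 3.09 to 10.3 CPM in aged mice. Trim56, a ligase that modifies cGAS and STING, rose by 0.71 at both ages (adjusted *P* = 0.00926 and 0.0134). Trim30a rose in aged mice by 1.33 (adjusted *P* = 0.0145) and was at 0.81 in young mice (adjusted *P* = 0.0753). The necroptosis partners of ZBP1 all rose in young mice, 4 of 4, and 2 of 4 rose in aged mice, against the same shares. Mlkl, the executioner of necroptosis, rose by 1.09 (adjusted *P* = 0.0246) and 1.82 (adjusted *P* = 0.00526), Casp8, which restrains it, by 0.96 (adjusted *P* = 0.00829) and 1.07 (adjusted *P* = 0.00873), and Ripk3 by 1.38 (adjusted *P* = 0.0117) in young mice, while in aged mice Ripk3 was at 0.86 (adjusted *P* = 0.0834).

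**Figure D5:**
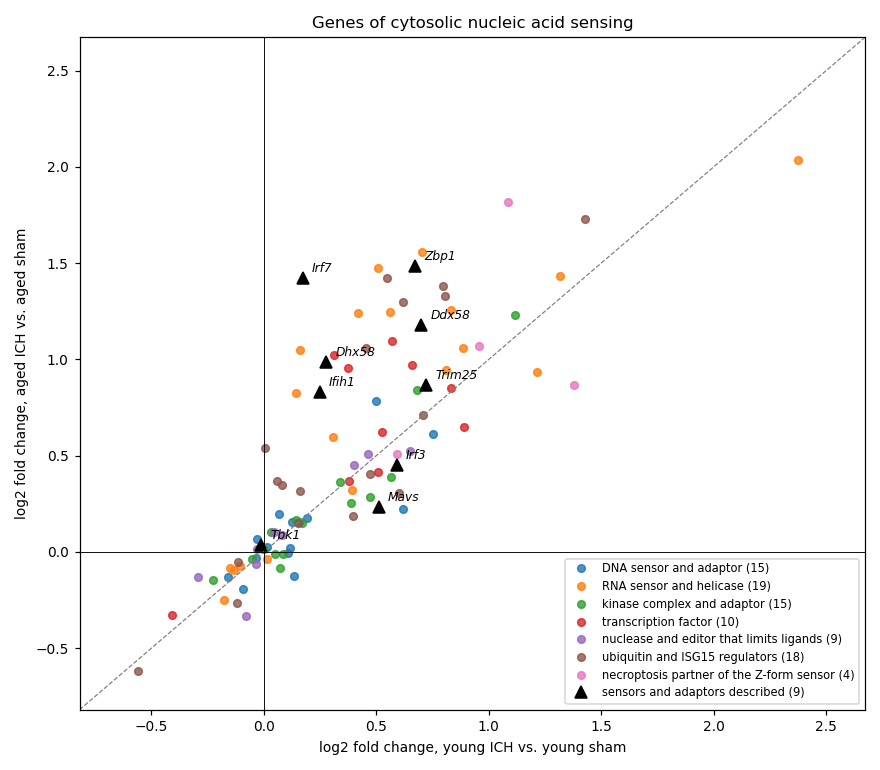
log2 fold changes in young ICH vs. young sham (horizontal) and aged ICH vs. aged sham (vertical) for the 90 listed genes of nucleic acid sensing, colored by role with the number of genes, and for the 9 sensors and adaptors (triangles). The dashed line marks equal changes, and 56 of the 90 listed genes lie above it, as do Irf7, Zbp1, Dhx58, Ifih1, Ddx58, Trim25 and, barely, Tbk1, while Irf3 and Mavs lie below it.

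The IFN genes that end the pathway were near the limit of the depth. Of 20 type I and type III IFN genes in the table, 11 had any count, no library had more than 2 counts of any of them, and none could be tested. Their counts summed to 5 in young sham, 2 in young ICH, 6 in aged sham and 12 in aged ICH. Ifnb1, the IFN gene that IRF3 acts on first, had 1 count in young sham 1 and 2 counts in aged ICH 1 and 0 elsewhere, and Ifna2, with 6 counts in all, had 2 in aged sham and 4 in aged ICH. Ifna13 and Ifne had 4 counts each, Ifnk had 2, and Ifna4, Ifna5, Ifna6, Ifna11, Ifnab and Ifnl3 had 1 each. Ifng, the type II IFN, had 4 counts in all. A count of 0 in the shallowest library allows up to 3 counts, or 0.106 CPM, counting error only. Differences in IFN ligands were not detectable at this depth, and as near-identical genes the Ifna family can share reads.

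The genes whose levels were most like those of each gene over the 12 samples are given as a description, with Pearson's r of log2 CPM, the highest of 21494 genes, over samples that share the 4 groups. Ddx58 was followed by Parp9 (r = 0.986), Trim30d and Trim30a, Ifih1 by Usp18 (0.982), Rnf213 and Rtp4, Dhx58 by Mx2 (0.982), Lgals9 and Ifit3b, Zbp1 by Bst2 (0.976), Ifi204 and Ifi44, and Irf7 by Ifit3 (0.970), Oasl2 and Isg15. Trim25 was followed by Ifi35 (0.977), H6pd and Il10rb. Irf3 was followed by Mfsd1 (0.986), Cd151 and Hspb8, Mavs by Tcaf2 (0.973), Cdk5rap2 and Plce1, and Tbk1 by Pkd1l3 (0.914), Gm18783 and Spag6. No gene of the 10 was among the 3 closest of another.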

How the data were processed

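RNA was measured in 12 samples, grouped by their labels. Per the labels and methods, the authors aligned paired reads to GRCm38.p6 with Hisat2 and used FeatureCounts for the deposited raw counts, and they also deposited FPKM (scaled to gene length and mapped fragments). The strand setting was not given in the sources used here. Each measure had 12 sample columns, all assigned. GENCODE vM21, of the same build, held 54409 of 54833 identifiers. Counts were tested with edgeR 4.0.16 in R 4.3.3 (quasi-likelihood, TMM, filterByExpr with a minimum count of 10, 1 fit of all 4 groups), a script that was tested on simulated data. The SE was taken from the log2FC and its F statistic. FPKM served for levels between genes and, as log2(FPKM + 1), for limma 3.58.1. The other alternatives were DESeq2 1.42.0, other scalings and filters, a replicate block, the 6 samples compared alone and each library left out. The pathway genes named had the 3 smallest *P* of their role over both comparisons of ICH with sham. The genes and lists were chosen with earlier results of these data known. Columns with the authors' comparisons were not used.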

Additional observations from a re-analysis of the deposited data

How the results depend on the processing

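Of 936 alternative values of the log2FC of the 9 genes, 866 kept their direction and their side of the threshold, 33 lost a call, 9 gained a call and 28 changed sign, none of the last in a called value. DESeq2 called 4 genes in young ICH vs. young sham, adding Ddx58, and 6 in aged ICH vs. aged sham, adding Ifih1. In the latter comparison 7 were called without a filter and 6 with limma. With only the 6 samples compared, 2 genes (Irf3 and Trim25) were called in young ICH vs. young sham in place of 3. The same setting gave 3 genes in aged ICH vs. aged sham in place of 5. With both aged sham 2 and aged ICH 1 left out, chosen after seeing the data, the count called in aged ICH vs. aged sham was 0 and the count of DEGs 1. For aged ICH vs. young ICH the DEGs numbered 5 without a filter, 1 with limma and 1 with both libraries left out, and in the interaction 1 without a filter. With the replicate number as a replicate block there were 5 DEGs in aged ICH vs. young ICH and 2 in the interaction, and the called genes of aged ICH vs. aged sham numbered 6. Same-numbered samples correlated between −0.454 and 0.235, so the numbers were not taken to pair them. The cause of these changes was not tested.

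Without 1 library, the called genes ranged from 1 to 3 in young ICH vs. young sham and from 0 to 5 in aged ICH vs. aged sham, and the DEGs from 0 to 4 in young ICH vs. young sham, 0 to 5 in aged ICH vs. young ICH and 0 to 1 in the interaction. The log2FC that changed sign in such fits ranged, in young ICH vs. young sham, from −0.0715 to 0.0711 for Tbk1 and −0.111 to 0.742 for Irf7. In aged sham vs. young sham they ranged from −0.00451 to 0.398 for Ddx58, −0.0037 to 0.372 for Ifih1, −0.303 to 0.112 for Dhx58, −0.417 to 0.401 for Zbp1 and −0.474 to 0.636 for Irf7. In aged ICH vs. young ICH they ranged from −0.141 to 0.0960 for Mavs and −0.106 to 0.0441 for Irf3, and in the interaction from −0.0344 to 0.108 for Tbk1 and −0.0448 to 0.367 for Trim25. Tbk1 in young ICH vs. young sham was 0.0151 with upper-quartile scaling and 0.0669 with limma. Zbp1 in aged sham vs. young sham was 0.0207 with upper-quartile scaling, 0.00762 with a minimum count of 50, 0.000381 with limma and 0.368 with both libraries left out, which also gave 0.105 for Dhx58 there and −0.143 for Trim25 in the interaction.

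Depth limited the IFN ligands, which had at most 2 counts in a library.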
